A study of Mus musculus with 670 samples.

Results

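Single skeletal stem cells with no read of Cnmd, a gene of cartilage cells that encodes chondromodulin, were compared between long bones of mice aged 24 and 2 months. The comparison asks which differences between the ages remain when cells with this cartilage transcript are left out. A well entered it with 0 reads of Cnmd, at least 500 detected genes, at least 50000 reads outside the spike-ins and under 20% of reads from mt- genes. The wells were thus selected on measured values, their reads of Cnmd, total reads, genes and mt- share. This left 130 wells, 64 of 24 months and 66 of 2 months, which are 52.2% of the wells that met the other limits on the same 6 plates, of 670 wells in the series. Among wells that met the other limits, the Cnmd rule removed 64.1% at 2 months and 1 of 65 at 24 months, so it acts almost wholly on the younger age.

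All mice were male and untreated, and their cells were sorted from digested bone with antibodies that the labels do not name and were processed without culture. Libraries were made well by well with SmartSeq2, which reads full-length transcripts without molecular identifiers. The 2-month wells lay on plates 1, 3 and 4 and the 24-month wells on plates 2, 5 and 12, with 21, 24, 21, 21, 17 and 26 Cnmd-negative wells in that order. The plates of 2 months carry batches 4, 5 and 1, and those of 24 months carry batches 3, 2 and 3. Since each of these batches belongs to a single age on the plates compared, batch and age cannot be told apart. The labels do not tie a well to an animal, so wells of an age may share their source. An age is therefore treated as a single sample without any test, and plates describe the spread.

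Skeletal stem cells of the mouse are sorted as cells that carry CD200 and the integrin alpha V and lack markers of blood, endothelium and more mature stroma. They give rise to cartilage, bone and marrow stroma. Marrow stromal cells are known for the chemokine CXCL12 and for Ebf transcription factors, osteoblasts for collagen I, and chondrocytes for collagen II, aggrecan and the regulator SOX9. Immediate early genes such as Fos and Egr1 are switched on within minutes by growth factors and by stress, including tissue digestion.

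A level below is the sum of a gene's reads on a plate, scaled to a common total of gene reads (CPM), and the log2 fold compares the means of 3 plates after 1 CPM is added to each. A gene counted as higher or lower when it reached 10 CPM at the higher age, with a 2-fold or larger gap between means and without overlap between the plates of the ages. Of 9274 genes that reached 10 CPM, 370 were higher at 24 months (3.99%) and 578 were lower (6.23%), or 10.2% in either direction. Counts of list members below are to be read beside these shares over all genes. Without the Cnmd rule 317 were higher (3.26%) and 1702 were lower (17.5%) of 9732. Both comparisons share their 24-month wells, apart from a single well.

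Wells of 24 months held more reads and fewer genes. Gene reads ran from 344182 to 5994911 at 24 months, with a median of 730 genes, and from 53909 to 4051388 at 2 months, with a median of 1162 genes. The rule leaves wells close to its limits on both sides. At 2 months the excluded well with the least Cnmd had 1 read (0.342 CPM), and 10 excluded wells had 1 to 10 reads; the excluded well of 24 months had 12 reads (21.5 CPM). In the shallowest included well, 3 reads would be 55.7 CPM at 2 months and 8.72 CPM at 24 months, so a lack of Cnmd reads means less in shallow wells. The fewest genes in an included well were 501 at 24 months and 517 at 2 months, and the most in a Cnmd-free well that missed the limit were 499 and 493.

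Some of the 2-month wells stood apart from the rest. Of 10 widely expressed genes, 19 of the 66 wells held fewer than 4 at 100 CPM or more, against 0 of 64 wells at 24 months. They comprised 13 of the 21 wells of plate 1, 4 on plate 3 and 2 on plate 4, and held 18.6%, 3.85% and 1.59% of the reads of these plates. Without them 384 genes were higher and 293 lower, so about as many genes were higher and fewer were lower. They may not each hold a cell, which was not tested, so shares over the 66 wells of 2 months can be too low. At an equal 50000 reads a well, H2-D1 (described below) was held by 40.9% of the 66 and by 53.2% of the other 47 wells (38.1% to 67.9%), and Gpx3 by 37.9% and 46.8% (32.1% to 61.9%). Results that rest on these wells are marked as such below.

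The Cnmd-negative wells of 2 months still held cartilage transcripts, against the aim of the rule. At least 1% of the reads came from a list of 24 cartilage genes in 27 of 66 wells at 2 months (40.9%, exact 95% interval 29% to 53.7%). The same held for 10 of 64 wells of the older mice (15.6%, 7.76% to 26.9%). Such intervals cover counting error only. A list of 20 marrow stroma genes went the other way. It took at least 1% of the reads in 5 of 66 wells of the younger mice (7.58%, 2.51% to 16.8%) and 25 of 64 of the older (39.1%, 27.1% to 52.1%), and these 25 lay on all 3 plates, with 6, 7 and 12 wells on plates 2, 5 and 12. A list of 20 osteoblast and bone matrix genes reached 10% of the reads in 9 wells at 2 months and 13 at 24 months. No well was past the marrow limit together with the osteoblast or the cartilage limit, and 3 wells were past both of the latter. These are ranges of a continuous share rather than cell types. At 24 months 12 wells lay within a factor of 2 of the marrow limit and 6 within that factor of the cartilage limit, and at 2 months 2 and 10 did. For the osteoblast limit 11 wells of 24 months and 10 of 2 months lay that close.

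**Figure D1:**
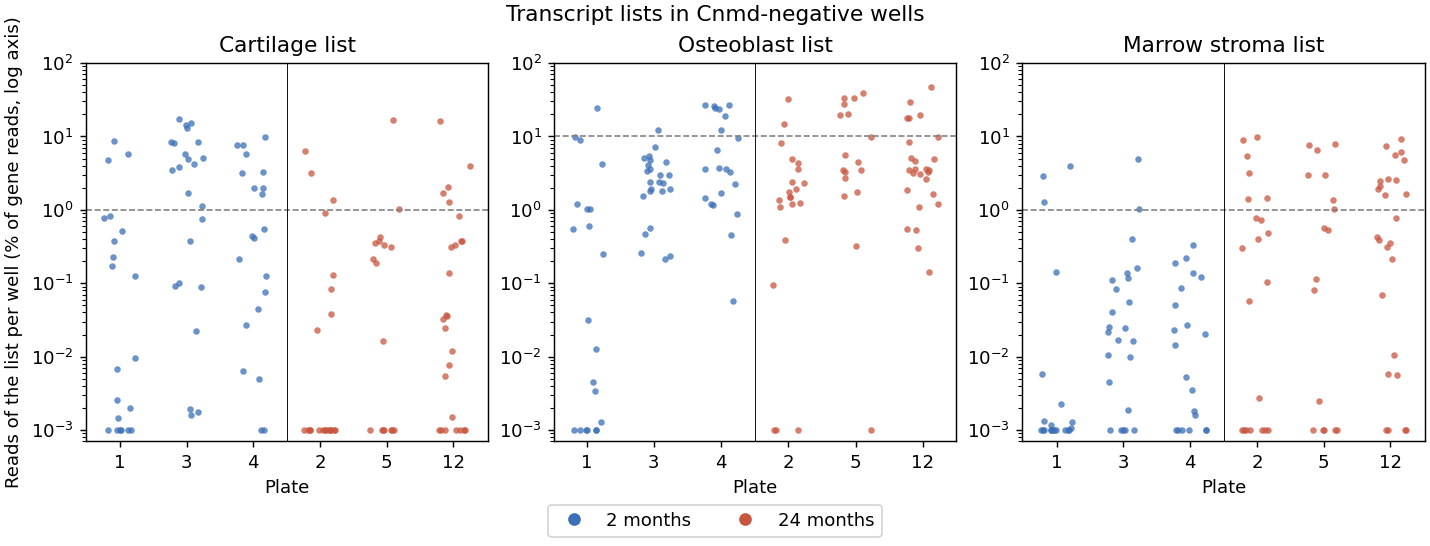
Share of each Cnmd-negative well's gene reads that came from the cartilage, osteoblast and marrow stroma lists, by plate, on a log axis. Each point is a well, values under 0.001% are drawn at 0.001%, and dashed lines mark the limits of 1%, 10% and 1%; the marrow list passes its limit in 25 wells of 24 months and 5 of 2 months.

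A few genes of complement control and of class I antigen presentation were higher at 24 months, 2 of 10 measured in the one list and 3 of 21 in the other. Serping1, the inhibitor of complement C1, stood at 156.5, 335.6 and 15.8 CPM on plates 1, 3 and 4 and at 2303, 1014 and 3945 CPM on plates 2, 5 and 12. The ages did not overlap, and the log2 fold was 3.83 (means 169.3 ± 160.3 and 2421 ± 1469 CPM, SD, n = 3 plates). H2-D1, a class I heavy chain gene on chromosome 17 from 35262730 to 35267499 (GRCm38), had 1487, 2403 and 967 CPM on the younger plates and 3477, 6752 and 6595 CPM on the older ones. Its log2 fold was 1.79, with no overlap, although its reads cannot be assigned with certainty among class I genes. At an equal 50000 reads a well, 42 of 64 wells held H2-D1 at 24 months (65.6%, 52.7% to 77.1%) and 27 of 66 at 2 months (40.9%, 29% to 53.7%).

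B2m, the light chain that all class I molecules share, was at 226.8, 171.8 and 66.5 CPM at 2 months and at 999.9, 658 and 475.6 CPM at 24 months (log2 fold 2.19). It was held by 45 of 64 wells at 24 months and 24 of 66 at 2 months. Ifitm3, an interferon-induced membrane protein that restricts virus entry, was at 127.3, 79.2 and 30.3 against 307.5, 371.9 and 420.9 CPM (log2 fold 2.20). Plates of the ages separated for H2-D1, B2m and Ifitm3, but not in wells that also had no read of 5 further cartilage genes (given below). There Serping1, H2-D1, B2m and Ifitm3 overlapped between the ages, at log2 folds of 1.65, 0.67, 1.06 and 0.30. That choice kept 30 wells of 2 months, of which 18 were left once the wells that stood apart were dropped. Of 21 measured genes of the class I and interferon list 3 were higher and 0 lower. Tap1, of peptide loading, and Psmb9, a proteasome subunit, had 0 reads at 24 months. At equal depth each was held by 1 well at 2 months, so their absence says little. The list had a median log2 fold of 0.76, against -0.09 over all genes. The complement genes higher were Serping1 and C1s1, the gene of a C1 protease, which stood at 0, 1.00 and 0.297 against 737.5, 17.2 and 195.5 CPM. C1s1 was held by 4 wells at 2 months and 6 at 24 months.

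Genes of blood cells were counted beside these. At least 1% of reads came from blood markers in 4 wells of 24 months, 3 of them on plate 2, and in 1 well of 2 months. The share reached 25.2% and 8.17% in 2 wells of plate 2, and 6.04% in the well of 2 months. Neutrophil markers took 1.37% of the reads of plate 2 and 0% and 0.0140% of plates 5 and 12. Ptprc, the gene of the white blood cell marker CD45, had 0 reads at 24 months and 33 at 2 months. Given the blood markers above, its lack of reads does not show a lack of blood cells. With the wells of at least 1% blood markers left out 352 genes were higher and 560 lower. These included 338 of the 370 higher and 532 of the 578 lower genes.

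The promoter of B2m is shown because GAAANNGAAA, the core of interferon-stimulated response elements, lies in it and the gene was higher on all 3 plates of 24 months. The 250 bases before its start site (RefSeq, GRCm38.p6, plus strand, chr2:122147437-122147686) carry the motif in capitals.
B2m: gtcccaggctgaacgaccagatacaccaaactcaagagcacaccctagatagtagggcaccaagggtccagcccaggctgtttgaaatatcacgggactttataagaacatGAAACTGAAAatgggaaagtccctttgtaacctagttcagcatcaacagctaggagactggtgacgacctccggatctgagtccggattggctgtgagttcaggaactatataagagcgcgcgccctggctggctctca
The motif was searched on both strands and occurs in 2.98% of 32851 mouse promoter windows of this length. Of H2-D1, B2m and Ifitm3, all of which had a window, it was found in B2m. A match describes letters and is no evidence of binding.

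Marrow stroma and niche genes were the list with the most members higher. Of 17 measured genes 6 were higher and 0 lower, with a median log2 fold of 2.45, and without the Cnmd rule 8 were higher (median 3.23). Cxcl12, the chemokine that retains blood stem cells in marrow, was at 2697, 406.2 and 87.9 CPM at 2 months and at 10350, 9313 and 6967 CPM at 24 months. The log2 fold was 3.06, and a single well gave 75.1% of the 2-month reads. It was held by 13 of 66 wells at 2 months (19.7%, 10.9% to 31.3%) and by 26 of 64 at 24 months (40.6%, 28.5% to 53.6%), and its median in the wells that held it was 650 and 14100 CPM.

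Igfbp5, a binding protein of insulin-like growth factors, was at 8.33, 342.3 and 33.4 against 3653, 3574 and 1544 CPM (log2 fold 4.50). Vcam1, an adhesion molecule of marrow stroma, was at 0.121, 82.9 and 0 against 693, 435 and 239.6 CPM (log2 fold 3.99). Gas6, a ligand of TAM receptor kinases, was at 318, 64.3 and 158.7 against 1117, 1279 and 799 CPM (log2 fold 2.56). Each of these separated the ages without overlap. Gas6 was held by 4 wells at 2 months and 20 at 24 months, with a median of 1914 and 2245 CPM in holding wells, so the ages differed in the number of wells more than in the level within them. Igfbp4, another IGF-binding protein, and Ebf3, a factor of marrow stroma, completed the 6, at log2 folds of 2.39 and 5.93, and Ebf3 was held by 5 wells of 24 months and 1 of 2 months.

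Ebf1, a transcription factor of marrow stroma and B cells given as a marker of this comparison, did not separate the ages. It was at 948, 115.9 and 107.4 CPM at 2 months and at 852, 1045 and 3383 CPM at 24 months, so plate 1 lay above plate 2 (log2 fold 2.17). Without the Cnmd rule it met the rule for higher genes, at 3.06. Lepr, which encodes the leptin receptor and marks marrow stroma, was at 906.5, 55.7 and 0.198 against 341.4, 157.7 and 292.8 CPM (log2 fold -0.28), with 96.6% of its 2-month reads in a single well. Kitl, the stem cell factor gene, and Adipoq, which encodes adiponectin, also overlapped, at log2 folds of 0.89 and 3.44. B cell markers took at most 0.00662% of the reads of any plate.

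**Figure D2:**
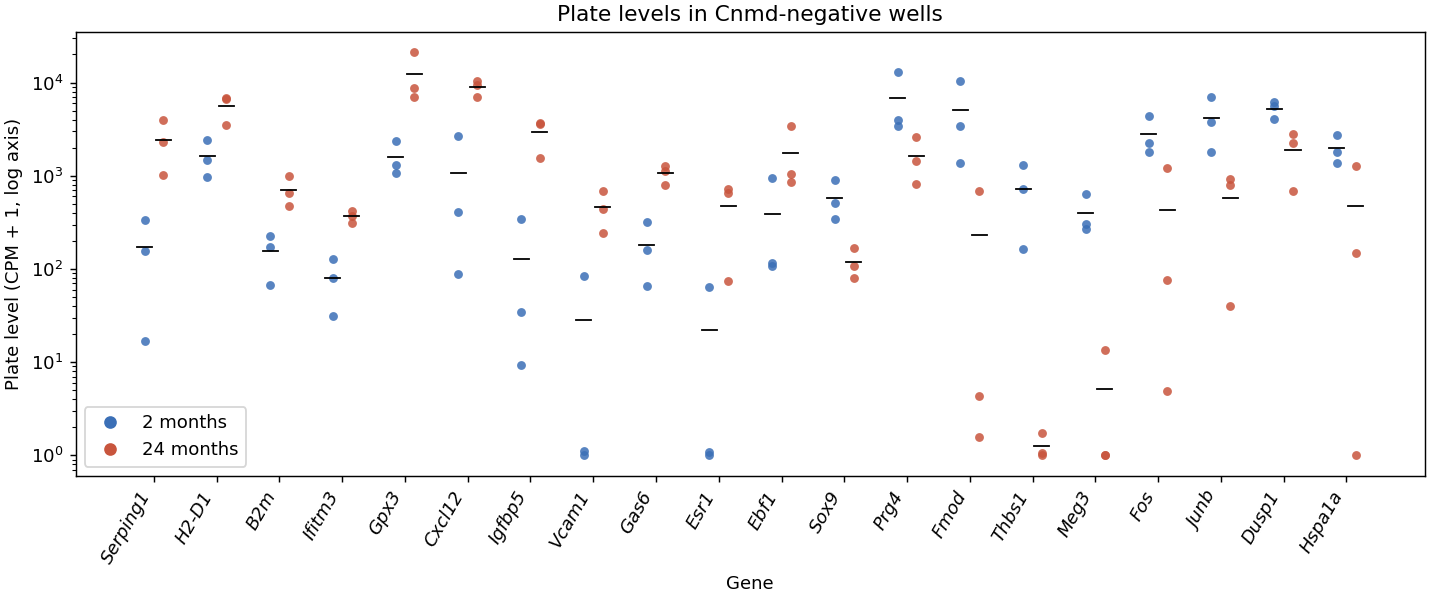
Level of 20 genes on each plate of Cnmd-negative wells, as CPM with 1 added, on a log axis. Points are plates, 3 for each age, and short lines are their means; plates of the ages separate for each gene drawn except Ebf1.

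Other genes higher at 24 months encode a hormone receptor, a ligand and a lipid enzyme. Esr1, which encodes estrogen receptor alpha, was at 0.0804, 63.3 and 0 against 72.4, 713 and 645 CPM (log2 fold 4.43), a narrow gap between plates 3 and 2. Efna5, an ephrin ligand, had a log2 fold of 4.98 and was held by 1 well at 2 months and 11 at 24 months. Plpp3, a lipid phosphatase of the cell surface, had a log2 fold of 4.92 in 6 and 12 wells.

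Some genes were named for their fold among called genes with a mean of at least 20 CPM at 24 months. They also needed a read on each of its plates and in at least 20% of its wells, counted at full depth. The highest fold among them, 7.24, was that of H2-Q10, a class I gene whose reads overlap those of H2-D1 and its relatives. At equal depth 6 wells of 24 months held H2-Q10, and a single well gave 79.4% of its 24-month reads. Cercam, at 5.54, rested on a single well for 86.6% of its reads. Igf2r, the receptor that clears IGF2, was at 3.70, 0.998 and 1.38 against 309, 174.1 and 4.45 CPM (log2 fold 5.76), so plate 12 barely lay above plate 1. Nsd3, a histone methyltransferase, was at 0, 25.7 and 28.4 against 216.5, 356 and 350.3 CPM (log2 fold 4.02) and was held by 11 and 20 wells. Tmbim6, an inhibitor of cell death in the endoplasmic reticulum, reached 3.90 in 11 and 18 wells, and Pan3, of the deadenylation machinery, 5.82 in 6 and 17.

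Gpx3, a secreted glutathione peroxidase, was named after its values were seen, for how many wells held it. It was at 1308, 1066 and 2370 CPM at 2 months and at 21060, 6938 and 8652 CPM at 24 months (log2 fold 2.95). At equal depth it was held by 25 of 66 wells (37.9%, 26.2% to 50.7%) and 53 of 64 wells (82.8%, 71.3% to 91.1%). It counted as higher in each of the 20 alternative settings run.

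Cartilage genes were lower where plates separated, yet most members of the list overlapped. Of 20 measured genes 6 were lower and 0 higher, with a median log2 fold of -2.04, while without the Cnmd rule 19 of 23 were lower (median -4.07). Cnmd chose the wells, and genes made in the same cells are tied to that choice, so these values are given as a description. Sox9, the master regulator of chondrocytes, was at 889, 509.9 and 340.1 CPM at 2 months and at 105.9, 79.8 and 165.2 CPM at 24 months (log2 fold -2.30). Col2a1, the main fibril collagen of cartilage, was at 476.8, 12460 and 4330 against 167.5, 1290 and 267.4 CPM, and plate 1 lay within the range of the 24-month plates. Cytl1, a secreted cartilage protein, was at 19350 ± 10640 against 7252 ± 6408 CPM (SD, n = 3 plates) and also overlapped. Hapln1, the link protein of aggrecan, was at 52.2, 38.3 and 13 CPM against 0 reads in 64 wells, which allows a share of wells with a read of up to 4.69%.

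Of 10 measured joint surface genes 1 was lower, Prg4, and 1 higher, the tetraspanin gene Tspan15 (log2 fold 3.00), and of 17 fibrous matrix genes 1 was lower, Fmod. Over all genes 3.99% were higher and 6.23% lower, so single members do not set these lists apart. Prg4, the lubricant of joint surfaces, was at 4010, 12900 and 3421 against 807, 1450 and 2603 CPM (log2 fold -2.06), and Fmod, the collagen-binding proteoglycan fibromodulin, at 1381, 10430 and 3399 against 3.33, 686 and 0.575 CPM (log2 fold -4.46). Fmod was held by 25 wells at 2 months and 3 at 24 months. In wells with no read of the 6 cartilage genes the fold of Prg4 turned to 8.60 and that of Fmod to 0.14, both with overlap. Col3a1, also of the fibrous list, overlapped at a log2 fold of -0.95.

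Among called genes with a read, at full depth, in at least 20% of the 2-month wells, the lowest folds were those of genes with few or no reads at 24 months. Thbs1, the matricellular protein thrombospondin 1, was at 163.9, 1292 and 717 CPM against 0.746, 0.0707 and 0 CPM (log2 fold -9.16) and was held by 17 wells at 2 months and 2 at 24 months. Dab2, an endocytic adaptor, was at 367.7, 289.3 and 269.4 against 0, 0 and 1.60 CPM (log2 fold -7.66), in 16 wells and 1 well. Meg3, an imprinted long noncoding RNA of chromosome 12, was at 301.9, 634 and 267.1 against 0, 12.5 and 0 CPM (log2 fold -6.29), in 23 wells and 1 well. Mgat4a, a glycosyltransferase gene, was at 84.9, 427.1 and 113.1 CPM with 0 reads at 24 months. Presence in 20% of the 2-month wells was part of the rule that named these genes. Pdgfrl (-6.99), Sptan1 (-7.39), Tacc2 (-5.89), Taf1d (-5.69), Fkbp3 (-5.17), D10Wsu102e (-5.31), the cartilage gene Snorc (-5.17) and Tpm3-rs7 (-5.95), whose reads cannot be told from those of its parent gene with certainty, also stood among the lowest. Pdgfrl and Taf1d no longer separated the ages without the 19 wells that stood apart.

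Of 24 measured immediate early genes 10 were lower at 24 months and 0 higher, with a median log2 fold of -1.67. Over all tested genes 6.23% were lower. In wells with no read of the 6 cartilage genes 0 of the list were lower, where 1.83% of all tested genes were, and the list median was -0.98. Without the Cnmd rule 17 of 26 were lower (median -2.34), beside 17.5% of all tested genes. Fos, a subunit of the AP-1 factor, was at 4342, 2229 and 1800 CPM at 2 months and at 1210, 3.92 and 74.5 CPM at 24 months (log2 fold -2.70). Junb, which pairs with it, was at 7007, 3742 and 1779 against 914.9, 39.5 and 789 CPM (log2 fold -2.84). Egr1, a zinc finger factor induced by growth signals, was at 2285, 2001 and 389.8 against 238.7, 0.0353 and 154.2 CPM (log2 fold -3.56). The 24-month plates differed widely among themselves, plate 5 being lowest for all 3 genes. Levels at 2 months also came unevenly from wells. On plate 1 the list took 14.2% of the reads in a single well, against a median of 0.00212% over its wells. The highest wells of plates 3 and 4 were at 6.22% and 6.34%, with medians of 0.766% and 0.311%.

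Dusp1, a phosphatase that ends MAP kinase signals, was at 5602, 6127 and 4067 against 2789, 677 and 2234 CPM (log2 fold -1.47). Jun, Fosb, Ier2, Ier5, Nr4a1 and Klf4 were the other genes lower, at log2 folds of -1.39, -3.41, -1.71, -5.84, -3.70 and -3.58, and Ier5 had 0 reads at 24 months. In wells that held Fos, its median was 3152 CPM in 24 wells at 2 months and 2421 CPM in 9 wells at 24 months. For Egr1 it was 1479 CPM in 21 wells and 1803 CPM in 5. The ages thus differed in how many wells held these genes, and levels within holding wells ran over each other. Heat shock genes were counted with them, since digestion is known to induce both. Of 15 measured, 4 were lower, and Hspa1a, an inducible chaperone whose reads overlap those of Hspa1b, was at 2740, 1784 and 1375 against 1280, 0 and 146.2 CPM (log2 fold -2.05). Hspd1, one of the 4, did not separate the ages without the 19 wells.

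The promoter of Dusp1 is printed because TGACGTCA, the motif of cyclic AMP response elements, lies in it. The 250 bases before its start (RefSeq, GRCm38.p6, minus strand, chr17:26508473-26508722) carry it in capitals.
Dusp1: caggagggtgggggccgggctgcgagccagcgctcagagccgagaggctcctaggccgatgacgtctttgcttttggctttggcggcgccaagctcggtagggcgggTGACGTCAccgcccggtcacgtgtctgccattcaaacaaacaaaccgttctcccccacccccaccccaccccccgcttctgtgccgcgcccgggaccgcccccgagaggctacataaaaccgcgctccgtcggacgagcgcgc
The motif reads the same on both strands and occurs in 1.55% of the 32851 windows. Windows were at hand for 8 of the 10 immediate early genes that were lower, and it was found in Dusp1.

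Within ranges of wells some genes differed less between the ages than over all wells, and others did not. Fos was held by 17 of 25 wells of the cartilage range at 2 months and by 6 of 9 at 24 months (the 3 wells also past the osteoblast limit are counted there), and the mean over wells was 2923 and 2204 CPM. Junb was at 3664 and 3666 CPM in those wells, in 17 of 25 and 6 of 9, and Dusp1 at 6022 and 6276 CPM, in 19 of 25 and 6 of 9. Other genes were held by a smaller share of these wells at 24 months. Egr1 was in 15 of 25 and 3 of 9 (1413 and 1266 CPM) and Ier2 in 17 of 25 and 4 of 9 (1747 and 474.5 CPM). The heat shock gene Hspa1a was in 8 of 25 and 1 of 9 (1321 and 122.4 CPM). In the marrow range 0 of 5 and 0 of 25 wells held Fos, and 0 of 5 and 3 of 25 held Junb. In the osteoblast range Fos and Junb were each in 1 of 9 and 0 of 13 wells. Dusp1 was there in 3 of 9 and 0 of 13, and Hspa1a in 4 of 9 and 0 of 13. In wells of no range Fos was in 6 of 27 and 3 of 17, Junb in 5 and 4, Dusp1 in 7 and 3, and Hspa1a in 4 and 3. Of the wells that held a gene, the cartilage range gave 17 of 24 and 6 of 9 for Fos, 17 of 23 and 6 of 13 for Junb, and 17 of 28 and 4 of 10 for Ier2. The part of well make-up in the age difference was not tested. Thbs1 was held by 13 of 25 wells of the cartilage range at 2 months and 0 of 9 at 24 months.

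Genes higher at 24 months also followed the ranges unequally. Cxcl12 was held by 4 of 5 marrow-range wells at 2 months and 22 of 25 at 24 months, at means of 9625 and 22530 CPM, and it belongs to the list that set the range. H2-D1, which does not, was at 11300 and 7636 CPM in the marrow range and at 1805 and 3300 CPM in the osteoblast range. In wells of no range it was held by 4 of 27 and 11 of 17, and by 3 of 11 at 2 months without the 16 of those wells that stood apart. Gpx3 was at 3173 and 9562 CPM in the osteoblast range, held by 9 of 9 and 12 of 13 wells, and at 549 and 11120 CPM in the cartilage range, held by 7 of 25 and 8 of 9. In the marrow range Gpx3 was at 4498 and 13330 CPM, held by 4 of 5 and 20 of 25 wells. In wells of no range it was at 446.4 and 10400 CPM, in 5 of 27 and 13 of 17. There it was in 3 of 11 at 2 months without the wells that stood apart. H2-D1 was in 12 of 25 and 3 of 9 wells of the cartilage range. By mean over wells Gpx3 was higher at 24 months in every range, while H2-D1 was not. The share of wells holding Gpx3 was not higher in every range. Wells of a range share plates and may share their source, so these values describe the wells at hand.

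**Figure D3:**
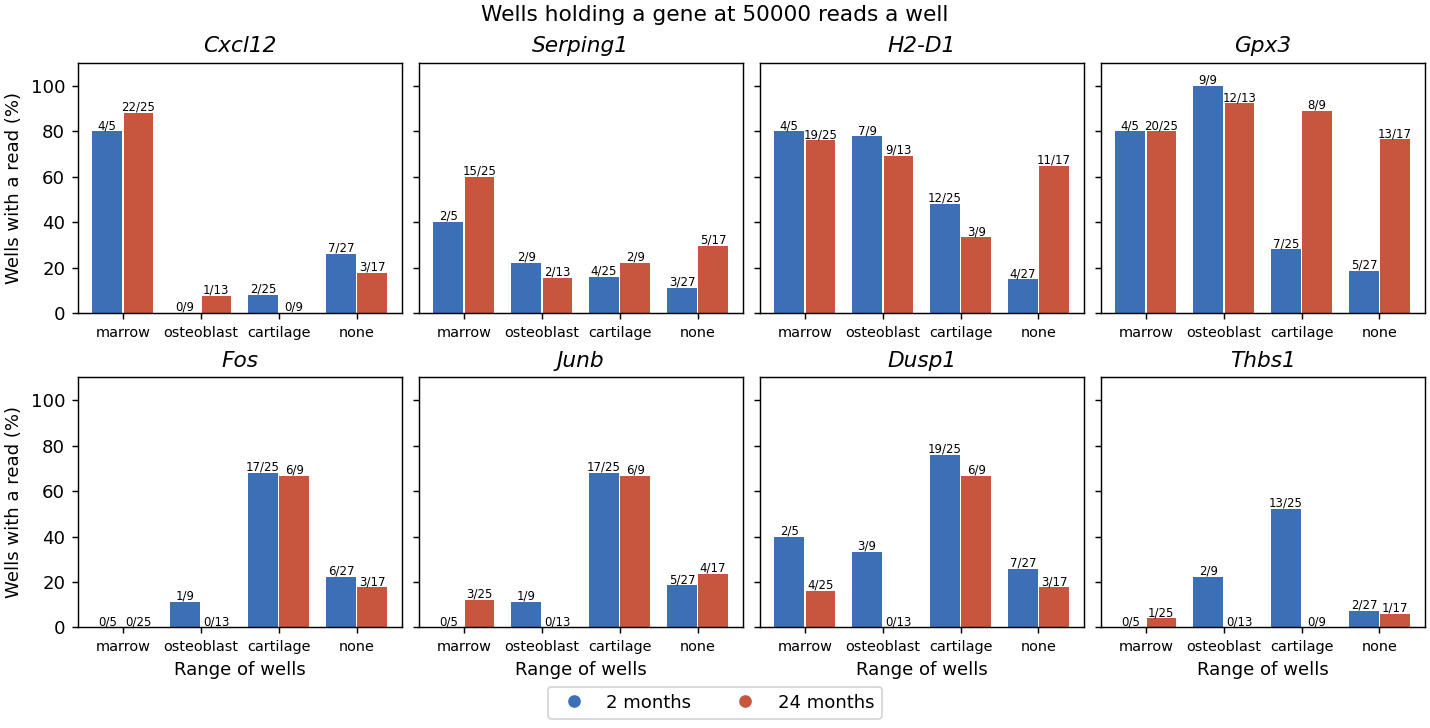
Share of Cnmd-negative wells that held a read of each of 8 genes at an equal 50000 reads a well, by range of wells and age. Bars give the percentage, and the fraction printed over a bar gives wells with a read of wells in the range; Fos and Junb are held by 17 of 25 and 6 of 9 wells of the cartilage range.

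Most bone and sorting genes overlapped between the ages. Of 19 measured genes of osteoblasts and bone matrix, 0 were higher and 0 lower (median log2 fold 0.15), whereas 4 were higher and 2 lower without the Cnmd rule (median 1.13). Col1a1, the main collagen of bone, was at 15000, 932 and 19770 against 10470, 20260 and 13490 CPM (log2 fold 0.31). Runx2, the osteoblast regulator, was at 237.98, 72.7 and 326.3 against 228.4, 731 and 868 CPM (log2 fold 1.52) and met the rule without the Cnmd restriction (1.89). Of the sorting markers, Cd200 was at 462.6, 257.7 and 497.1 against 303, 1921 and 786 CPM (log2 fold 1.30), held by 17 and 30 wells. Itgav, which encodes the other positive marker, was held by 4 and 8 wells at equal depth. Markers that the sort removes were nearly absent: Pecam1 of endothelium and Enpep of mature stroma had 0 reads at both ages, and Thy1 and Eng had 0 at 24 months against 40 and 2 reads. Nt5e, which encodes CD73, was lower, at 193.4, 1322 and 285.5 against 0, 64.9 and 131.1 CPM (log2 fold -3.18).

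Factors that drive or restrain osteoclasts overlapped between the ages. Csf1, which drives macrophage and osteoclast formation, was at 49, 66.2 and 207.01 against 52.1, 34 and 478.1 CPM (log2 fold 0.80). Tnfrsf11b, the decoy receptor osteoprotegerin, had a log2 fold of -0.66, and Tnfsf11, which encodes RANKL, was found on plate 12 alone, at 81.3 CPM, with 99.96% of its reads in a single well. Cdkn1a, a cell cycle inhibitor raised by p53, overlapped at -0.36, with 20 holding wells at each age.

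Genes of energy metabolism were called in part. Of 20 nuclear genes of oxidative phosphorylation 4 were higher, Ndufb8, Ndufv1, Uqcrc1 and Atp5a1, at log2 folds of 2.43, 2.10, 1.49 and 1.43, with a list median of 0.49. Of 11 measured mitochondrially encoded genes 3 were lower, among them mt-Co1 at 6438, 7114 and 5919 against 4772, 2791 and 1907 CPM (log2 fold -1.04). Without the 19 wells that stood apart, 0 of the 11 met the rule and 4 nuclear genes still did. The share of mt- reads also served to choose wells.

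A stricter choice of wells removed most of the lower genes and kept some of the higher ones. When wells also had 0 reads of Col2a1, Col9a1, Col9a2, Matn3 and Acan, 51 wells of 24 months and 30 of 2 months were left, with 5.78% of tested genes higher and 1.83% lower. Of the 578 lower genes 75 were lower there too, and 47% of the 370 higher genes were higher there too. Cxcl12, Gas6, Igfbp5 and Ebf3 stayed higher, as did Efna5, Plpp3, Nsd3 and Gpx3, at log2 folds of 2.02, 1.88, 3.82, 6.29, 3.50, 2.36, 4.37 and 2.47. The immediate early list had a median of -0.98, and Junb was at -2.87 with overlap. Sox9 and Dusp1 turned to 1.96 and 0.29. Dab2 stayed lower at -6.29. This choice rests in part on the wells that stood apart. Without them 18 of the 30 wells of 2 months remained, with 5 of 14 on plate 1, and 525 genes were higher and 76 lower.

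**Figure D4:**
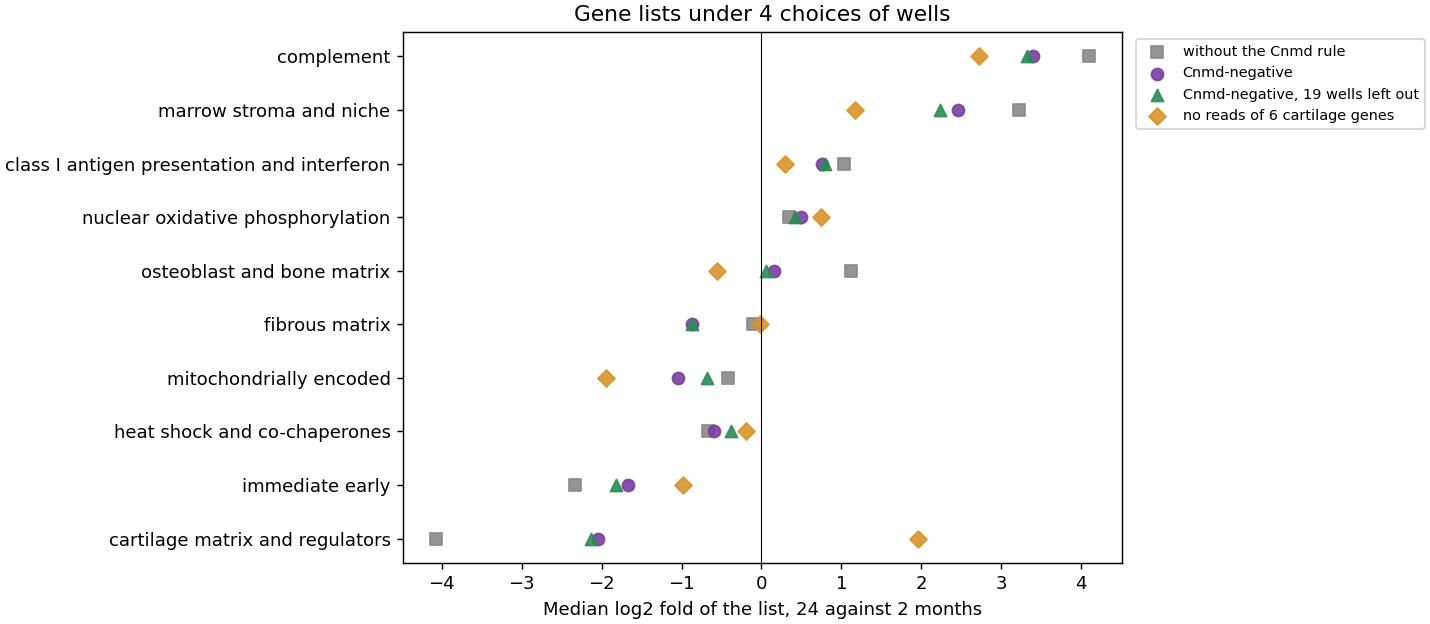
Median log2 fold of 10 gene lists, 24 against 2 months, under 4 choices of wells. The choice drawn as diamonds kept 30 wells of 2 months, of which 18 are outside the wells that stood apart. Squares are all wells that met the other limits, circles the Cnmd-negative wells, triangles those without the 19 wells that stood apart and diamonds wells with no read of 6 cartilage genes; the marrow list lies at 3.23, 2.45, 2.23 and 1.18, and the immediate early list at -2.34, -1.67, -1.82 and -0.98.

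The calls depended on the settings. Of the 370 higher genes 17 were called in every planned setting that kept all plates, and of the 578 lower genes 30 were. Wells with at least 1000 genes, 15 of 24 months and 42 of 2 months, gave 1.83% of tested genes higher and 9.86% lower.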

How the data were processed

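Values are RSEM expected counts per gene, made and deposited by the authors. Per the submitters' processing notes, bcl2fastq 2.18, STAR 2.4 and RSEM 1.2.21 were used with GRCm38.p6; the annotation release is not given in the sources used here. Of the values above 0, 14.8% were not whole, and all were rounded. The 92 spike-in rows were left out of totals, 24 rows named by a number are not reported, and 1 column was not used. Ages came from the labels. Wells were summed by plate and scaled to CPM (pandas 2.3.3 and numpy 2.4.6 under Python 3.11.15). Medians of lists use genes of at least 5 CPM at either age. Wells were thinned to 50000 reads for shares of wells, with exact 95% intervals. Coordinates are GENCODE genes of GRCm38 matched by symbol, and promoters are RefSeq. Wells were sorted as single cells and no doublet caller was run; no index pair recurred among wells of the 6 plates. No test was made, since an age is treated as a single sample. The code was tested on simulated data.

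Genes named were the 3 markers, 14 genes fixed by name, the 12 highest and 12 lowest folds, and list members; 1 of the 12 highest is not reported here. Genes taken for their fold needed a mean of 20 CPM, reads in 20% of wells and a read on each plate at the higher age, without predicted genes and pseudogenes. Members and lists were chosen with earlier results of these data known. Alternatives changed the limits of wells, weights, depth, scaling (edgeR 4.0.16 TMM or DESeq2 1.42.0 size factors on plate sums), pseudocount and plates; 4 were added after the data were seen.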

Additional observations from a re-analysis of the deposited data

How the results depend on the processing

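The counts of genes depended most on which wells entered, and are given here as percentages of tested genes. Genes higher at 24 months made up 3.99%, and 1.83% with wells of at least 1000 genes. With a plate left out they made up 5.31% to 9.57%, from 5.31% without plate 1 through 6.5%, 7.36%, 8.25% and 9.08% without plates 3, 4, 12 and 2 to 9.57% without plate 5. Genes lower made up 6.23%, and 1.83% with no reads of the 6 cartilage genes. With a plate left out they made up 9.12% (plate 5) to 15.2% (plate 1), with 9.96%, 10.2%, 10.4% and 10.8% without plates 12, 4, 3 and 2. In alternatives added after the data were seen, 3.24% were lower without the 19 wells that stood apart, 3.19% when cells were also weighted equally, and 0.949% when the 6 cartilage genes were also at 0. With fewer plates the ages separate more easily, by construction. A minimum of 0 in place of 10 CPM gave 385 higher and 806 lower. The split of higher against lower moved by under 10 percentage points with TMM and DESeq2 factors (39% higher, 33.9% and 44.7%), and TMM moved the median fold of tested genes from 0.03 to -0.15. Log2 folds of named genes changed sign with no reads of the 6 cartilage genes, and with the 19 wells also left out, for Sox9 (1.96 and 6.16), Prg4 (8.60 and 8.57), Fmod (0.14 and 1.51), Nr4a1 (2.80 and 2.81), Dusp1 (0.29 and 0.19), Bag3 (3.15 and 3.15), Mcm6 (0.024 and 0.024), Nt5e (0.37 and 0.31) and Rpl5 (-0.26 and -0.35). Igfbp4 changed sign in the second alone (-0.15). The cause was not tested. Of all alternative fold values 87.3% moved by less than the spread of plates. No paired analysis was possible, since the labels tie no well to an animal and no batch holds both ages compared. No test was made. Absence from 64 wells allows a share of up to 4.69%, and from 66 wells of up to 4.55%.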

Other observations

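Genes of Wnt and Notch signalling went both ways. Dkk1, a secreted Wnt inhibitor, had 0 reads at 2 months and stood at 170.1, 227.9 and 4.99 CPM on plates 2, 5 and 12, but 3 wells held it at equal depth. Sfrp1, another such inhibitor, was at 7.64, 0.713 and 0 against 172.1, 9.33 and 178.8 CPM. Notch2, a receptor, was at 14.1, 7.84 and 19.1 against 33.9, 45.4 and 162.5 CPM and was held by 15 wells at 2 months and 36 at 24 months. Lrp6, a Wnt co-receptor, was lower at a log2 fold of -3.06, and Notch1 had 0 reads at 24 months against at most 18.8 CPM on a 2-month plate. Of 21 measured genes of that list 3 were higher and 2 lower, beside 3.99% higher and 6.23% lower over all genes. Counts this small do not set the list apart.

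Predicted genes that resemble satellite repeats were far lower at 24 months by plate sums, but unevenly across the wells of 2 months. Gm10800 was at 3463, 6111 and 10340 CPM at 2 months and at 29.9, 100.8 and 57.1 CPM at 24 months, and was held by 59 of 66 and 22 of 64 wells at equal depth. Of 11 such genes looked up after their values were seen, 8 were called lower, and together they took a median of 1.14% of a well's reads at 2 months and 0.000976% at 24 months. Without the 19 wells that stood apart Gm10800 no longer met the rule. The 8 other wells of plate 1 had at most 0.0305% of reads from these genes, within the 24-month range of 0 to 0.183%. Wells of plates 3 and 4 had at least 0.157% and 0.345%. The difference thus did not extend to those wells of plate 1.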
